A study of Rattus norvegicus with 8 samples.

Results

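Kinesins are the motor proteins that walk along microtubules, mostly towards the end that points away from the cell body, and their genes (Kif) together with those of the kinesin light chains (Klc) are the subject here. They were found by name: every probe whose gene name in the array files, without a suffix for predicted or mapped genes and without regard to capitals, is Kif with a number and an optional letter, or Klc with a number. That gave 33 genes on 48 probes, out of 35581 distinct gene names on 41012 probes. Of these, 39 probes of 27 genes cleared the background on 4 or more of the 8 arrays, and 38 of the 39 did so on all 8. Expression had been measured in the medial thalamus, the midline part of the brain's main relay to the cortex, of conscious male Sprague-Dawley rats. The occlusion group of 4 rats had tracheal occlusions, brief blocks of the airway lasting 3 to 10 breaths with about 30 s of recovery, in daily sessions for 10 days. The 4 surgical control rats had daily sessions without occlusions for the same 10 days, and death followed the last session by at most 10 min in all rats. The labels name no transgene, drug or strain difference between the groups, and do not say how the medial thalamus was dissected.

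The array held 60-base probes and was read in 1 colour. A level below is log2 of a probe's signal relative to the 75th percentile of its own array, so it ranks the arrays for a probe but not the probes among themselves. A difference is occlusion minus control on that scale. Between 65% and 71.6% of spots were above background on each array, arrays correlated at 0.953 to 0.986, and each of the 2 slides carried 2 arrays of either group. In bulk tissue, fewer cells of a type and less RNA per cell cannot be told apart. Across all 27159 probes tested the median difference was 0.04.

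A conventional kinesin is a pair of heavy chains, which hold the motor domain and burn ATP, and a pair of light chains, which bind cargo. In neurons such motors carry synaptic vesicle precursors, mitochondria, RNA granules and receptors down the axon and into dendrites, and Kif1a, Kif3c, Kif5a and Kif5c are among the members known chiefly from neurons and are described together. A separate set of kinesins assembles the spindle and completes cytokinesis in dividing cells. Others work in cilia, in Hedgehog signalling or as enzymes that take microtubules apart.

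A probe, not a gene, is what was measured, and those shown are probes described array by array further on, among them both Kif1a probes, which gave unequal differences. Sequences come from the array files, run 5′ to 3′ and are in lower case, with capitals marking the triplets TAA, TAG and TGA in any forward frame. A probe whose coordinates (rn3) span more than its 60 bases covers a genomic gap and is shown whole, and of any other only the first 30 bases are shown. No rn3 annotation was used here, so whether a probe lies in coding or untranslated sequence is not given.
Kif1a, A_44_P275145, chr9:92565818-92566561: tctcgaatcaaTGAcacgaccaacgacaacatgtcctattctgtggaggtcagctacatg
Kif1a, A_44_P511470, chr9:92493671-92493730: tcTAAgcaTAGacggacttaTAAtTAAtat
Klc2, A_44_P180299, chr1:207882563-207883007: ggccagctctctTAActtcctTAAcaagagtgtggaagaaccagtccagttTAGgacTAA
Kif6, A_44_P172807, chr9:6465415-6472816: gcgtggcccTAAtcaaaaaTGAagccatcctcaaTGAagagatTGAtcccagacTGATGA
Kif5a, A_44_P224453, chr7:67210838-67210897: cgttgTGAgcttccTAAattggaaaaacga
Kif1b, A_44_P991662, chr5:166260512-166260571: ctctTGAcggttattcttgtatgTAAtcct
Kif26a, A_44_P258168, chr6:137012275-137012334: aggagcctttcgagatcaaggtgtaTGAga
The first Kif1a probe and those of Klc2 and Kif6 span 744, 445 and 7402 bases, so each joins stretches that are apart in the genome, as exons are. The second Kif1a probe lies 72087 bases from the first, within a single stretch, and its 60 bases hold a stop triplet in each of the 3 forward frames. The first holds 1 stop triplet in all, with 2 frames free of any, and the Kif1b probe, like the second of Kif1a, holds stops in all 3.

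No kinesin or light-chain probe passed the test between occlusion and control rats. In limma, adjusted over all 27159 probes, 0 of the 39 reached an adjusted p under 0.05 (smallest 0.414), as did 0 of all probes (0% of them). The 39 divided into 21 higher and 18 lower in occlusion rats, with a median difference of 0.05, against 0.04 over all probes, of which 56.6% were higher. Without the 2 probes that were saturated on some or all arrays, 19 of 37 were higher with a median of 0.01, and the median was -0.0013 with quantile normalisation and -0.01 with no filter on dim probes. At an unadjusted p under 0.05 stood 9 of the 39 (23.1%), 6 higher and 3 lower, where all probes gave 10.8% (7.05% higher and 3.74% lower). The occlusion and control arrays did not overlap for 6 probes (15.4%), against 6.37% of all probes. Those 6 were 5 higher, where all probes gave 4.12%, and 1 lower, where they gave 2.25%. The 9 became 4 without control 2 and 5 without control 3, where the count over all probes became 1998 and 2045, against 2931 with every array. The 6 became 10 without occlusion 4. The median spread within a group was 0.26 (SD) over the 39 probes and 0.25 over all probes.

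**Figure D1:**
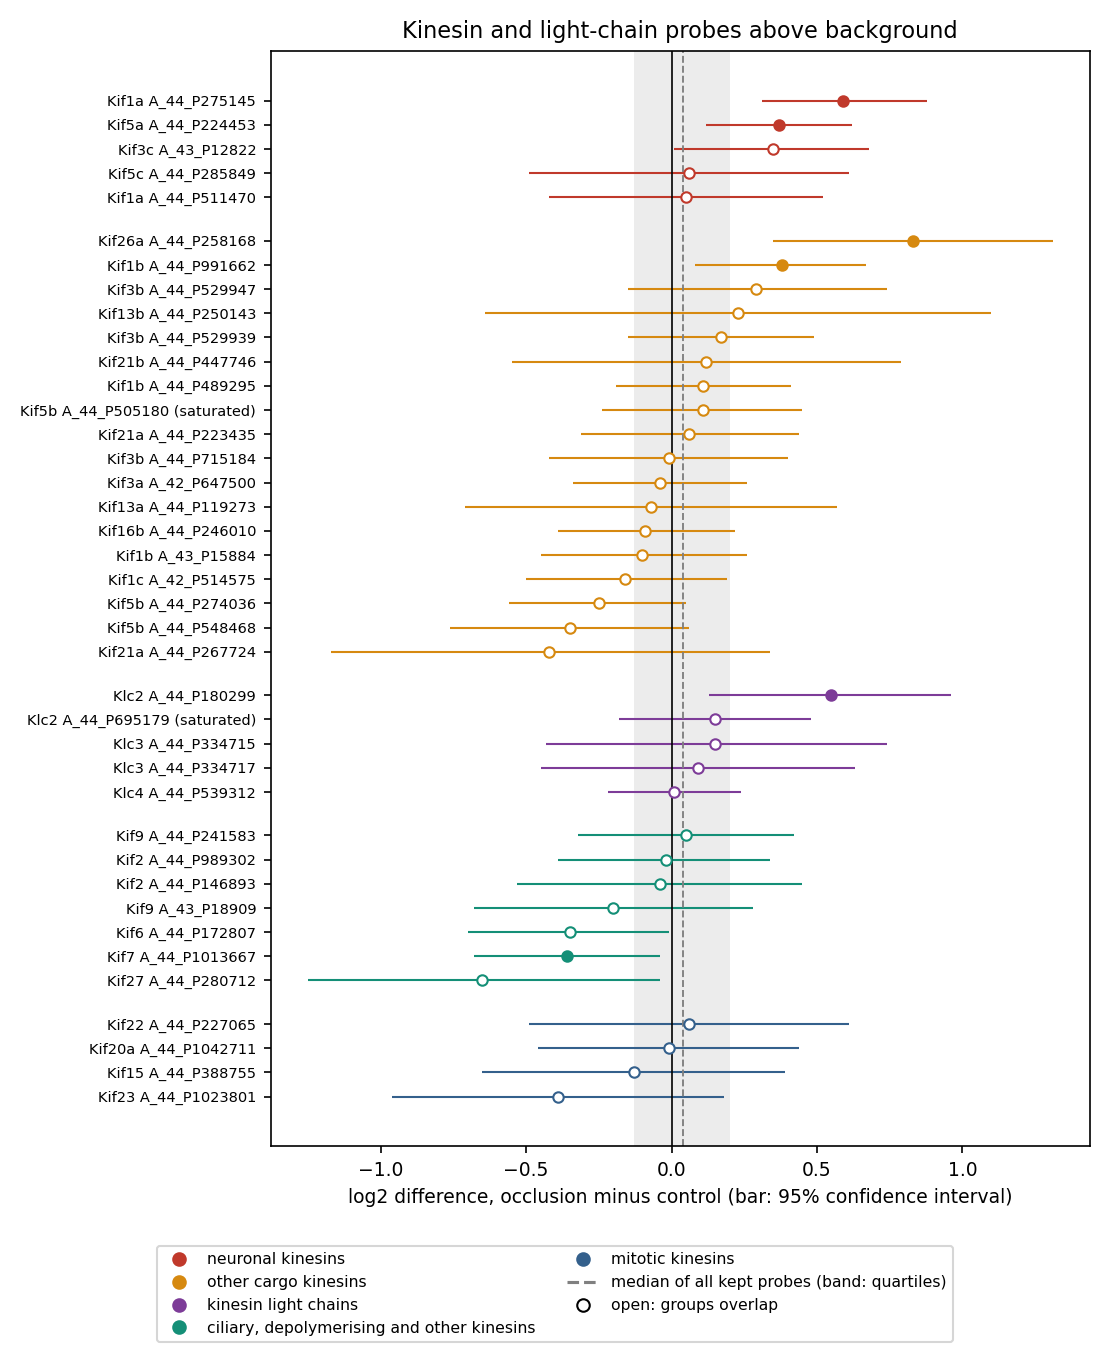
Log2 difference, occlusion minus control, of the 39 kinesin and light-chain probes above background, grouped by role, with 95% confidence intervals from limma (n = 4 occlusion and 4 control arrays, except a Kif3b probe with 3 occlusion arrays). Filled points mark the 6 probes whose groups do not overlap, and the grey line and band give the median (0.04) and quartiles (-0.13 to 0.20) of all probes tested.

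The 5 probes of Kif1a, Kif3c, Kif5a and Kif5c all read higher in occlusion rats, with a median difference of 0.35. Kif1a, the motor for synaptic vesicle precursors, had levels of 3.66, 3.51, 3.87 and 3.52 in occlusion rats, against 3.10, 3.04, 2.88 and 3.16 in control rats, on the probe that covers a genomic gap, A_44_P275145. Every occlusion array stood above every control array. The difference was 0.59 (SE 0.12, 1.51-fold, 95% interval 0.31 to 0.88), with 0.64 within slide 1 and 0.55 within slide 2 (adjusted p = 0.414 in limma). It ran from 0.52 to 0.64 when each array was left out in turn.

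The other Kif1a probe was measured separately. Its levels were 0.62, 0.41, 0.68 and 0.16 in occlusion rats, against 0.18, 0.08, 0.91 and 0.48 in control rats. The groups overlapped widely, control 3 being the highest of all 8 arrays. The difference was 0.05 (SE 0.21, 95% interval -0.42 to 0.52), with 0.32 within slide 1 and -0.21 within slide 2. That interval overlaps the 0.31 to 0.88 of the first probe.

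Kif5a, a heavy chain of conventional kinesin, had levels of 0.23, 0.15, 0.29 and 0.03 in occlusion rats, against -0.20, -0.30, -0.22 and -0.05 in control rats. The groups did not overlap, though occlusion 4 and control 4 lay close to each other. The difference was 0.37 (SE 0.11, 1.29-fold) and nearly equal within slide 1 (0.38) and slide 2 (0.35), with an adjusted p of 0.414 in limma. Kif5c, a sister heavy chain that was also first known from neurons, had levels of -2.01, -2.23, -2.04 and -2.58 in occlusion rats, against -2.60, -2.40, -1.60 and -2.50 in control rats. Its groups overlapped, and the sign turned between the slides (0.53 within slide 1, -0.41 within slide 2). The difference was 0.06 (SE 0.24, 95% interval -0.49 to 0.61), and 0.29 without control 3.

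Kif3c, a kinesin-2 subunit that pairs with Kif3a, had levels of 2.35, 1.92, 2.13 and 2.33 in occlusion rats, against 1.94, 1.78, 1.59 and 2.04 in control rats. Only occlusion 2 fell within the control range. The difference was 0.35 (SE 0.15, 1.27-fold), with 0.25 within slide 1 and 0.44 within slide 2 (adjusted p = 0.452 in limma). Its partner Kif3a read -0.04 (SE 0.13, 95% interval -0.34 to 0.26), and the difference between the partners was not tested.

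**Figure D2:**
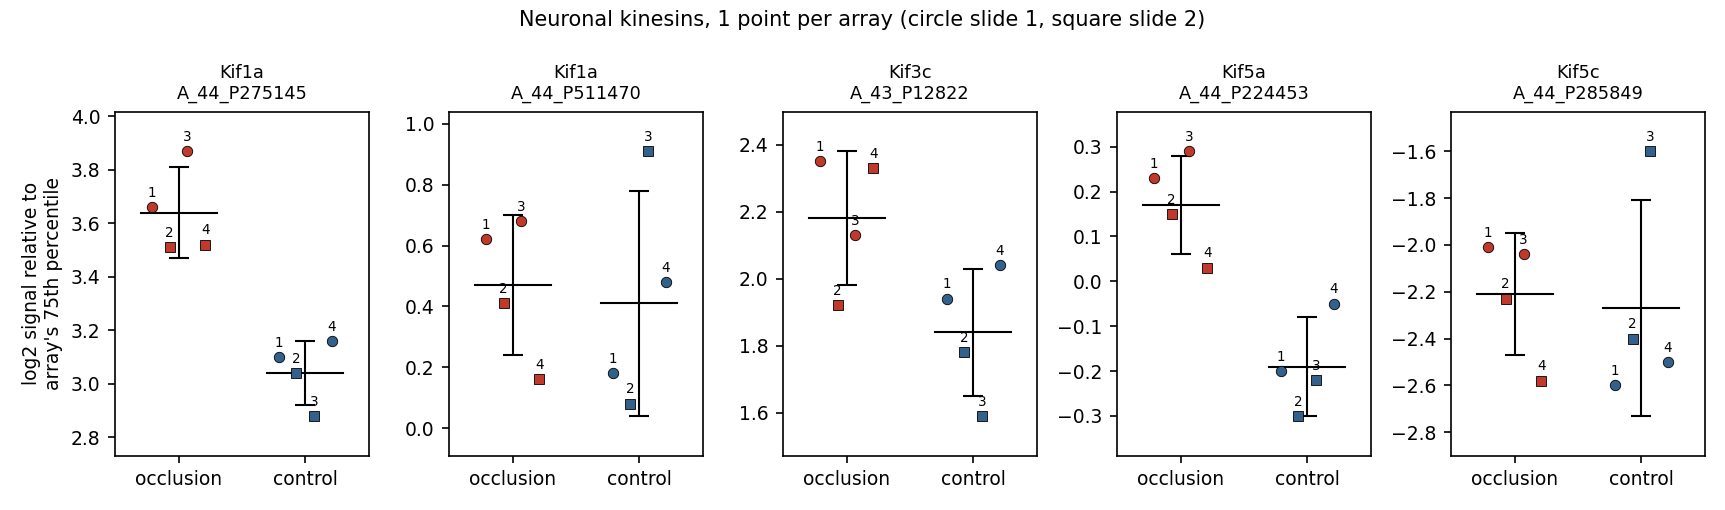
Levels (log2 signal relative to the array's 75th percentile) of the 5 probes of Kif1a, Kif3c, Kif5a and Kif5c, 1 numbered point per array, with mean and SD of the 4 arrays per group. The occlusion arrays stand clear of the control arrays for the Kif1a probe A_44_P275145 (3.51 to 3.87 against 2.88 to 3.16) and for Kif5a, and overlap them for the other 3 probes.

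Among 18 probes of 11 other kinesin genes, 9 read higher and 9 lower in occlusion rats, with a median difference of 0.03, close to that of all probes. These are the other cargo kinesins, with Kif26a grouped among them. Kif26a, an atypical kinesin without motor activity that in mice restrains growth signalling in enteric neurons, showed the largest difference of any kinesin probe here. Its levels were -1.93, -2.20, -2.30 and -2.80 in occlusion rats, against -3.01, -3.54, -3.03 and -2.97 in control rats. The groups did not overlap, and occlusion 4 came nearest to the controls. The difference was 0.83 (SE 0.21, 1.78-fold, 95% interval 0.35 to 1.31), with 0.88 within slide 1 and 0.79 within slide 2 (adjusted p = 0.414 in limma). Leaving out 1 array at a time gave 0.70 to 1.0.

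Kif1b, a relative of Kif1a that carries mitochondria or synaptic vesicle precursors depending on its isoform, had 3 probes. On A_44_P991662 its levels were 0.70, 0.76, 0.95 and 0.50 in occlusion rats, against 0.38, 0.18, 0.36 and 0.47 in control rats. The groups did not overlap, by a narrow margin between occlusion 4 and control 4. The difference was 0.38 (SE 0.13, 1.30-fold), with 0.40 and 0.36 within slides 1 and 2 (adjusted p = 0.414 in limma). The other Kif1b probes read 0.11 (SE 0.13) and -0.10 (SE 0.15), with overlapping groups.

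Kif5b, the conventional heavy chain found in most cell types, had 3 probes. The 2 of them that were never saturated read -0.35 (SE 0.18, unadjusted p = 0.0864) and -0.25 (SE 0.13, unadjusted p = 0.0906) in limma. The remaining probe was saturated on 1 occlusion and 4 control arrays, where its level is only a lower bound, so its difference is not read. Kif3b, the usual partner of Kif3a, read 0.29 (SE 0.20), 0.17 (SE 0.14, 3 occlusion arrays) and -0.01 (SE 0.18) on its 3 probes. Kif1c, which moves vesicles between Golgi and the cell edge, read -0.16 (SE 0.15), and Kif16b, a motor of early endosomes, -0.09 (SE 0.13). Kif13a and Kif13b, which carry receptors and membrane vesicles, read -0.07 (SE 0.28) and 0.23 (SE 0.38). Kif21a and Kif21b, which also act in neurons and slow microtubule growth, read 0.06 (SE 0.16) and -0.42 (SE 0.33) on the 2 probes of Kif21a and 0.12 (SE 0.29) on that of Kif21b. The Kif21b probe was above background on 3 of 4 arrays in each group, the only 1 of the 39 not detected everywhere. Each of these intervals includes 0.

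The light chains, which hand cargo to the heavy chains, read above 0 on the 4 of their probes that were never saturated, from 0.01 to 0.55. On A_44_P180299 Klc2 had levels of 1.39, 1.0, 1.07 and 1.33 in occlusion rats, against 0.74, 0.72, 0.19 and 0.95 in control rats. The groups did not overlap, and control 3 lay far below the other controls. The difference was 0.55 (SE 0.18, 1.46-fold), with 0.39 within slide 1 and 0.71 within slide 2 (adjusted p = 0.414 in limma), and 0.39 without control 3. A second Klc2 probe was saturated on all 8 arrays and gives no difference. Klc3, known from spermatids as well as brain, read 0.15 (SE 0.25) and 0.09 (SE 0.24) on its 2 probes, and Klc4 read 0.01 (SE 0.10, 95% interval -0.22 to 0.24).

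**Figure D3:**
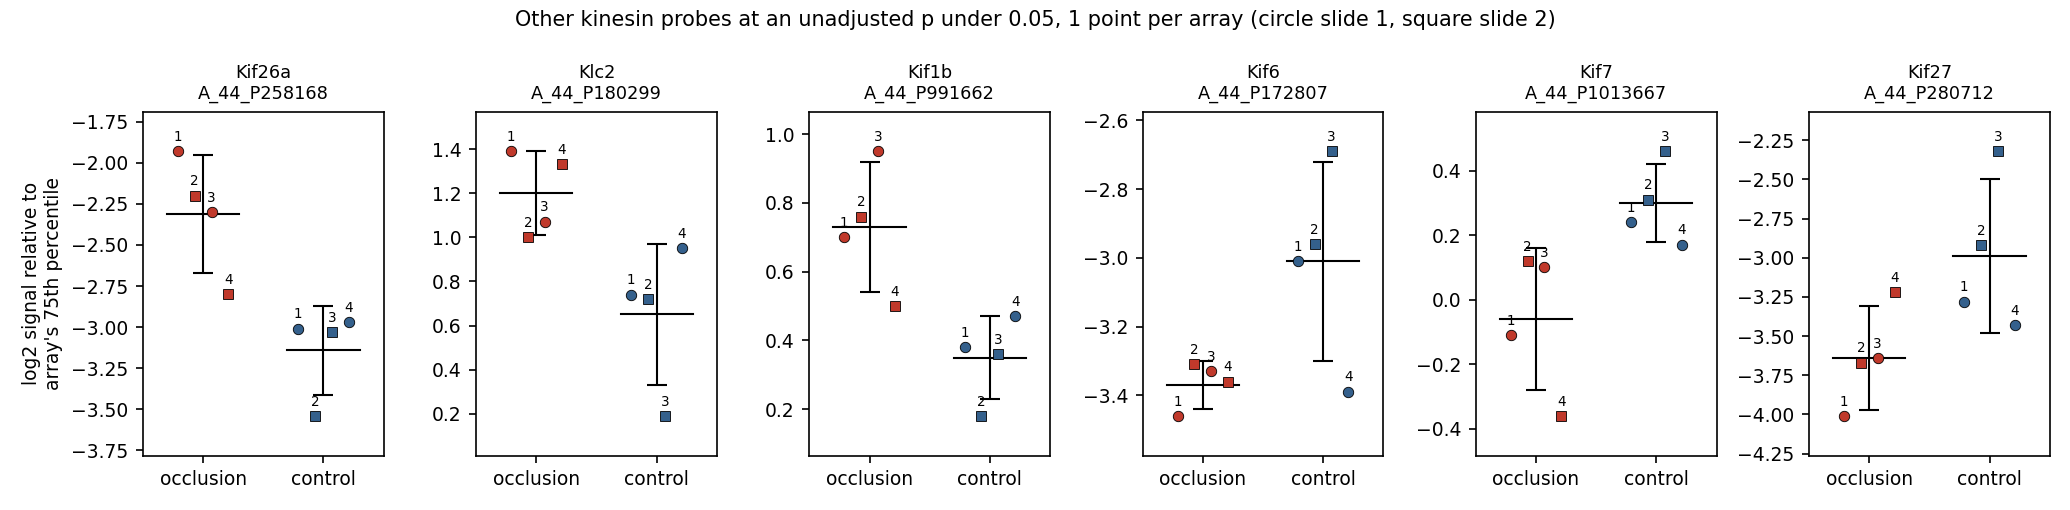
Levels (log2 signal relative to the array's 75th percentile) of the 6 other probes at an unadjusted p under 0.05, 1 numbered point per array, with mean and SD of the 4 arrays per group. Kif26a, Klc2 and Kif1b are higher in occlusion than in control rats without overlap, Kif7 is lower without overlap, and Kif6 and Kif27 are lower with overlap, through control 4 for Kif6 and controls 1 and 4 for Kif27.

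The kinesins of cilia, of Hedgehog signalling and of microtubule disassembly leaned the other way, with 6 of 7 probes lower in occlusion rats and a median difference of -0.20. Kif27, a relative of Kif7 needed for motile cilia in mice, had levels of -4.01, -3.67, -3.64 and -3.22 in occlusion rats, against -3.28, -2.92, -2.32 and -3.43 in control rats. The difference was -0.65 (SE 0.26, 1.57-fold lower), with -0.47 and -0.82 within slides 1 and 2 (adjusted p = 0.444 in limma). It was -0.42 without control 3 and -0.43 with normexp background correction. Its groups overlapped through occlusion 4, which exceeded controls 1 and 4. A second Kif27 probe was well above background on no array and gives no difference. Kif6, linked to the cilia of ependymal cells in mice, had levels of -3.46, -3.31, -3.33 and -3.36 in occlusion rats, against -3.01, -2.96, -2.69 and -3.39 in control rats. The occlusion arrays were tightly grouped, and only control 4 fell among them. The difference was -0.35 (SE 0.15, 1.28-fold lower, adjusted p = 0.455 in limma), with -0.20 within slide 1 and -0.51 within slide 2. It was -0.48 without control 4, -0.25 without control 3 and -0.20 with normexp background correction.

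Kif7, a regulator of Hedgehog signalling at the tip of the primary cilium, had levels of -0.11, 0.12, 0.10 and -0.36 in occlusion rats, against 0.24, 0.31, 0.46 and 0.17 in control rats. It was the 1 kinesin probe whose groups stood apart with the occlusion arrays below. The difference was -0.36 (SE 0.14, 1.28-fold lower), with -0.21 within slide 1 and -0.51 within slide 2 (adjusted p = 0.430 in limma). Another probe, listed in the files under LOC498974 but matched by accession to Kif7, read 0.10 (SE 0.14), and the difference between the Kif7 probes was not tested. Kif9, also of motile cilia, read 0.05 (SE 0.16) and -0.20 (SE 0.21). Kif2, now called Kif2a, an enzyme that shortens microtubules in growing axons, read -0.04 (SE 0.22) and -0.02 (SE 0.16). Motile-cilium genes among the ependymal markers read lower too, with Rsph1 at -0.79 (SE 0.18), Dnah9 at -0.85 (SE 0.29), Dynlrb2 at -0.73 (SE 0.25) and their regulator Foxj1 at -0.64 (SE 0.26). Their part in the values of Kif6 and Kif27 was not tested.

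Of 8 mitotic kinesins, 4 were above background, and none of those differed at an unadjusted p under 0.05 in limma. Kif23, a subunit of the complex that builds the midzone in cytokinesis, had levels of -3.06, -3.81, -3.43 and -3.37 in occlusion rats, against -3.06, -3.26, -2.37 and -3.40 in control rats. The groups overlapped, and the difference of -0.39 (SE 0.25) was -0.01 within slide 1 and -0.77 within slide 2. Control 3 stood alone at the top, and without it the value was -0.17.

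Kif15, a spindle motor that is also found in growing neurons, had levels of -3.20, -2.85, -2.44 and -3.25 in occlusion rats, against -2.95, -2.94, -2.32 and -3.01 in control rats. The difference was -0.13 (SE 0.23), 0.15 within slide 1 and -0.42 within slide 2. Control 3 was again the highest array. Kif20a, which acts in cytokinesis, had levels of -3.71, -3.86, -3.73 and -4.11 in occlusion rats, against -3.56, -3.74, -3.68 and -4.40 in control rats, a difference of -0.01 (SE 0.20). Kif22, a motor on chromosome arms, had levels of -1.37, -1.51, -1.33 and -1.94 in occlusion rats, against -1.53, -1.34, -2.26 and -1.27 in control rats, a difference of 0.06 (SE 0.24). Both sets of groups overlapped over most of their range.

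Of the genes with no probe above background, the mitotic ones were Kif11, the bipolar spindle motor, Kif14, of cytokinesis, Kif2c, which takes apart microtubules at kinetochores, and Kif4, a chromosome-bound motor. The others were Kif2b and Kif12. On 7 probes, among them both of Kif11 and the second of Kif27, no array was well above background. The remaining 2 were Kif4, detected on 1 array in each group, and a second Kif16b probe, detected on 1 occlusion and 2 control arrays. No difference is given for these probes.

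The neuronal set of 4 genes and the mitotic kinesins were set side by side. With each probe centred on its own mean over the 8 arrays, the median over the 5 neuronal probes was 0.24, 0.02, 0.23 and 0.04 in occlusion rats, against -0.24, -0.29, -0.21 and -0.04 in control rats. The same median over the 4 mitotic probes was 0.15, 0.01, 0.18 and -0.31 in occlusion rats, against 0.10, 0.03, 0.36 and -0.16 in control rats. The occlusion arrays were above the control arrays for the neuronal probes, by a small step from control 4, and mixed with them for the mitotic probes. The median of the probes' differences was 0.35 for the neuronal and -0.07 for the mitotic set, a gap of 0.42. The gap was 0.28 within slide 1 and 0.69 within slide 2, and 0.27 without occlusion 4. The mitotic median was 0.10 within slide 1 and 0.02 without occlusion 4, so its sign did not hold. Within an array, the neuronal minus the mitotic median was 0.09, 0.01, 0.06 and 0.36 in occlusion rats, against -0.34, -0.33, -0.57 and 0.12 in control rats, with control 4 above occlusions 1 to 3. No test was run on these medians, since the genes were chosen with earlier results of these data known.

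Probes of the same gene were compared with each other in 12 pairs that were never saturated, a comparison chosen after seeing the data. The level of the first Kif1a probe minus that of the second was 3.03, 3.10, 3.19 and 3.35 in occlusion rats, against 2.91, 2.96, 1.97 and 2.67 in control rats. These values did not overlap, and control 3 lay lowest. The mean gap between the probes was larger by 0.54 in occlusion rats (exact permutation test, two-sided, p = 0.0286, the smallest possible with 70 assignments). Adjusted over the 10 pairs with a value on every array, p was 0.204, and a lone pair at the smallest possible p could not have reached 0.05 after that adjustment. For Kif1b the probe A_44_P991662 exceeded the differences of the other probes by 0.27 and 0.48 (exact permutation p = 0.114 and 0.0857). The gap was 0.24 for Kif9 (exact permutation p = 0.0857) and 0.48 for Kif21a (exact permutation p = 0.143).

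Further kinesins stood in the files under other names. Matching by accession and synonym added 7 probes above background, of which none reached an unadjusted p under 0.05 in limma. The nearest was Mphosph1, now Kif20b, a cytokinesis motor, at -0.43 (SE 0.21, unadjusted p = 0.0756). Kns2, now Klc1, the main light chain of brain, read 0.07 (SE 0.12) on its unsaturated probe. Kif19 read -0.20 (SE 0.16), Kif26b -0.22 (SE 0.39) and Kif4b 0.17 (SE 0.37). The SE of Kif26b exceeded its difference, so no direction is read from it.

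Adaptors and related motors mostly read higher, with 24 of 31 measured genes on that side, a median of 0.13 and 0 passing, where 56.6% of all probes were higher. Of the 31 genes, 4 were saturated on some or all arrays, most of them on the higher side, and 2 lacked a value on some arrays. Klc1 is among the saturated ones, since its brighter probe stands for it here. At an unadjusted p under 0.05 stood 2 of the 31 (6.45%, against 10.8% of all probes), both higher and both without overlap between the groups (6.45%, against 6.37% of all probes). Plekhm2, which couples lysosomes to the kinesin light chains, had a mean level of -3.41 ± 0.16 in occlusion rats and -3.94 ± 0.10 in control rats (SD, n = 4 each), a difference of 0.54 (SE 0.12). Borcs5, a subunit of the complex that recruits the same lysosomal machinery, had -2.12 ± 0.14 in occlusion rats and -2.58 ± 0.17 in control rats (SD, n = 4 each), a difference of 0.47 (SE 0.13). Both had an adjusted p of 0.414 in limma. The small GTPases that link these proteins, Arl8a and Arl8b, read 0.11 (SE 0.12) and -0.04 (SE 0.25). At the other end were Lin7c, part of a scaffold that binds receptor cargo, at -0.22 (SE 0.14), and Kifbp, which binds and inhibits several kinesins, at -0.16 (SE 0.17).

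Dynein and dynactin, which pull cargo back towards the cell body, gave 20 higher and 8 lower of 28 measured genes. That is 71.4% higher, against 56.6% of all probes, with a median of 0.05 and 0 passing. Of the 28 genes, 4 were saturated on some or all arrays, and all 4 count as higher. A value was missing on some arrays for 4 of the 28. At an unadjusted p under 0.05 stood 3 (10.7%, against 10.8% of all probes), all lower. They included the light chains Dynlrb2 at -0.73 (SE 0.25), which also serves cilia, and Dynlt1 at -0.46 (SE 0.19), and the cargo adaptor Hook3 at -0.31 (SE 0.13), named after its value was seen. At the top were Dctn1, the large subunit of dynactin, at 0.29 (SE 0.13), and Dynlrb1 at 0.20 (SE 0.12). Proliferation genes other than kinesins gave 8 higher (33.3%) and 16 lower of 24 measured, with a median of -0.11 and 0 passing. At the lower end were Mcm6, a replication helicase subunit, at -0.51 (SE 0.12), and Top2a, a topoisomerase of dividing cells. On the higher side stood Tyms, which makes thymidylate, at 0.94 (SE 0.26), and Birc5, a mitotic regulator, at 0.36 (SE 0.19). Top2a was above background on 1 occlusion and 3 control arrays, and its difference is left out for that reason. Mki67, the usual marker of cycling cells, was not kept by the filter on dim probes.

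Several lists of cell type markers also leaned higher or lower in occlusion rats, with 0 passing over all probes. General neuronal markers gave 11 of 14 higher (78.6%, against 56.6% of all probes, median 0.17). Of these 14, 4 were saturated on some or all arrays, and all 4 count as higher. A further 2 lacked a value on some arrays, so the sums of this list are not compared. All 14 relay neuron markers were higher (median 0.69). Of them, 3 were saturated on some or all arrays, where a level is only a lower bound. The relay sums are left out for that reason. Of 18 oligodendrocyte and myelin markers 16 were lower (median -0.34). Saturated on some or all arrays were 3 of the 18, among them the 2 that read higher. Mbp, Mobp and Cnp had a value on only 3, 2 and 3 occlusion arrays, against 4 control arrays. The sums of this list are not compared for that reason. GABA neuron and reticular markers gave 9 of 11 lower (median -1.15). Their summed level, in units of each array's 75th percentile, was 6.99 to 50.1 in occlusion and 26.2 to 74.8 in control rats. Choroid plexus and ependymal markers gave 8 of 10 lower (median -0.69), with sums of 12.5 to 18.4 in occlusion and 10.3 to 24.8 in control rats. The 2 higher ones were Ttr, a choroid plexus marker, at 1.85 (SE 0.69, groups without overlap), and Kcnj13 at 0.45 (SE 1.11). Of the lower ones, 2 were without overlap. In each list whose sums are given, the sums of the groups overlapped. At an unadjusted p under 0.05 in limma stood 14.3% of the neuronal, 50% of the relay and 22.2% of the myelin markers. Of the GABA list 36.4% did so and of the choroid plexus and ependymal list 80%, against 10.8% of all probes. In the same order, 14.3%, 7.14%, 11.1%, 9.09% and 30% were without overlap between groups, against 6.37% of all probes.

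One control rat stood near the occlusion rats in several of these lists. Occlusion rats had relay marker means of 1.78, 1.40, 1.16 and 1.38 and myelin marker means of 1.60, 1.47, 1.30 and 1.42. Control 4, the control nearest to them for the neuronal kinesins too, had a mean relay marker level of 1.25, against 0.89, 0.19 and 0.22 in controls 1 to 3. Its myelin marker mean was 1.52, against 1.96, 2.09 and 2.26 in controls 1 to 3. Some occlusion arrays lacked a value for Mbp, Mobp or Cnp, while no control array did. Their myelin means therefore cover fewer genes, and how close control 4 lies to them is not settled. On choroid plexus and ependymal markers, occlusion rats had means of -1.16, -0.77, -0.68 and -0.95, against -0.13, -0.21, -0.29 and -1.57 in control rats, so control 4 was the lowest of all arrays there. It also lay within the occlusion range for Kif6 and Kif27. The part of these markers in the kinesin values was not tested. Astrocyte, microglial and vascular markers had medians of -0.03, 0.01 and 0.16, and those of oligodendrocyte precursors -0.13.

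**Figure D4:**
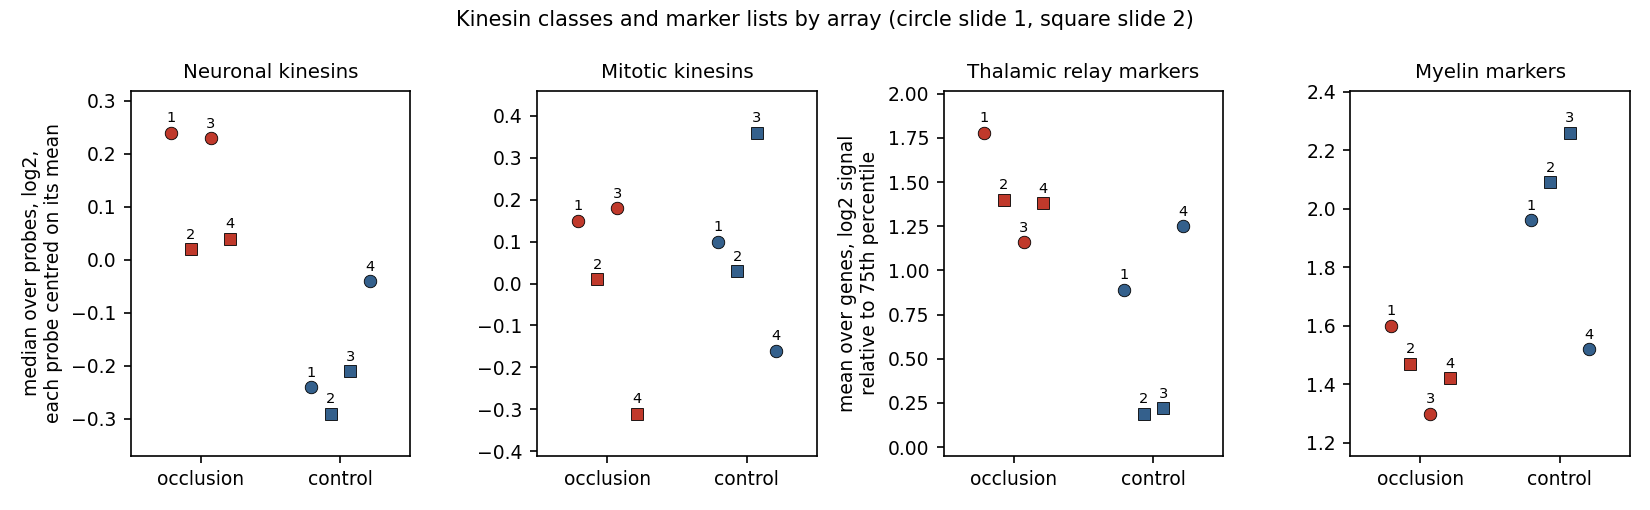
By array, the median of the centred neuronal (5) and mitotic (4) kinesin probes in the left pair of panels, and the mean level of 14 relay and 18 myelin markers in the right pair, all on the log2 scale, with 1 numbered point per array. Control 4 is the control nearest to the occlusion arrays for the neuronal kinesins (-0.04), the relay markers (1.25) and the myelin markers (1.52). Some occlusion arrays lacked Mbp, Mobp or Cnp, so their myelin means cover fewer than the 18 genes.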

How the data were processed

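RNA (1 µg per array) from the medial thalamus of 8 rats was labelled with Cy3 and hybridised to 1-colour Agilent arrays. Spots were quantified by the authors in Feature Extraction 9.5.1.1, per the file headers, which gave a mean and a processed intensity per spot, the second after spatial and multiplicative detrending, with surrogate values for dim spots and no scaling across arrays. A deposited series-wide table repeats those processed intensities to within 0.497%. Deposited flags (another kind of column, 0 or 1 per spot) marked outliers, saturation and signal well above background. From these, control and outlier spots were left out, log2 processed signal was reduced by each array's 75th percentile, spots of a probe were averaged, and probes well above background on at least 4 of 8 arrays with at least 2 values per group were kept (27159, of which 1107 lack a value somewhere). Groups were compared with limma 3.58.1 in R 4.3.3 (two-sided tests, with Benjamini-Hochberg adjustment across every kept probe and a threshold of 0.05), tested on simulated data. The design text mentions a reference design, but each array was scanned in 1 channel. Replicates are separate animals per the design text. Their number, not a count of reads, limits the precision.

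Values per array are given for Kif1a, Kif3c, Kif5a, Kif5c, the mitotic kinesins and any other member probe at an unadjusted p under 0.05 or without overlap. From each pathway list, with the brightest probe standing for a gene, the text names 2 genes at the top and 2 at the bottom of limma's moderated statistic. Arl8a and Arl8b, the motile-cilium markers, Ttr and Kcnj13 were named after their values were seen. The members, lists and settings were chosen with earlier results of these data known. Same-numbered arrays of the groups deviated together for replicates 1 and 2 (r = 0.355 and 0.514) but not 3 and 4 (-0.072 and -0.293), so the numbers were not taken as pairs. Replicates 1 and 2 share a slide between the groups, and 3 and 4 do not. Every occlusion and control array on the same slide deviated together (r = 0.121 to 0.514), and none on different slides did (-0.429 to -0.072). The main fit had no slide term.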

Additional observations from a re-analysis of the deposited data

Results flagged for a closer look

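In 77 groups of 4 arrays tested among the kinesin probes, 4 held an array far from the other 3, where chance flags about 1 in 20. For Kif26a, control 2 read -3.54, against -3.03 to -2.97 in the other controls, and without it the difference was 0.70. For Kif15, control 3 read -2.32, against -3.01 to -2.94, and without it the difference was 0.03. Control 3 also had the highest reticular marker mean of the 8 arrays (1.40). The other flags fell on saturated probes. For a Kif5b probe occlusion 4 read 4.69, against 5.23 to 5.26, and for a Klc2 probe control 2 read 5.10, against 4.95 to 4.97. Occlusion 4 had the highest 75th percentile of signal (2134, against 1370 to 1885 elsewhere), and its part in that value was not tested.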

How the results depend on the processing

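Across 20 alternative settings, 0 kinesin probes and 0 of all probes passed (smallest adjusted p of a named kinesin probe 0.152). With slide as a block in limma, 0 passed (smallest adjusted p over all probes 0.222). There, 9 kinesin probes stood at an unadjusted p under 0.05 and 3851 probes did so in all, against 2931 without it. With the replicate block, 0 passed, 7 kinesin probes stood at an unadjusted p under 0.05 and 2796 probes did so in all. No paired value changed a call. The 9 kinesin probes at an unadjusted p under 0.05 became 5 within either slide alone, with 4 arrays each, and 4 to 11 when 1 array was left out. The 6 without overlap became 16 within either slide, where 2 arrays stand against 2, and 6 to 10 when 1 array was left out. The median kinesin difference was -0.04 within slide 2 and -0.04 to 0.06 when 1 array was left out. The gap between neuronal and mitotic kinesins was 0.69 within slide 2 and 0.27 to 0.61 when 1 array was left out.

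Of 300 alternative values of the 15 named probes, 283 kept their sign, and 10 of the probes never changed it. Within slide 1 Kif15 turned to 0.15 and Kif20a to 0.26, and within slide 2 the second Kif1a probe turned to -0.21 and Kif5c to -0.41. Leaving out 1 array gave -0.06 to 0.22 for the second Kif1a probe, -0.05 to 0.29 for Kif5c, -0.16 to 0.20 for Kif22, -0.19 to 0.09 for Kif20a and -0.30 to 0.03 for Kif15. The cause was not tested. Saturation leaves 2 of the 39 kinesin probes with a bound on some or all arrays.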
